A study of Mus musculus with 8 samples.

Results

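The antioxidant enzymes described here are 10 mouse genes whose products remove superoxide and peroxides: Sod1, Sod2, Sod3, Cat, Gpx1, Gpx3, Gpx4, Prdx1, Prdx6 and Txnrd1. They were chosen by symbol among 23997 gene symbols, with earlier results of these data known. All 10 were found in each of 8 RNA-seq libraries of embryonic mouse lung. All libraries came from C57BL/6 embryos with tamoxifen-induced labelling. In translating ribosome affinity purification (TRAP), mRNA is sequenced from ribosomes of chosen cells, here recovered by immunoprecipitation of L10, a ribosomal protein. Wild-type lungs gave 1 TRAP and 1 whole-lung library at embryonic day 14 (E14) and again at E17. At E16, 2 TRAP libraries came from wild-type and 2 from Sox9-mutant embryos. The labels name neither the allele, the driver of the labelling nor the cells it reaches, and nothing in them says that replicates came from separate embryos. All 8 titles begin with Sox9 and do not say what it marks. The E16 titles hold E13 as well, with no explanation, and the E14 reference is called whole lung homogenate in its label and a supernatant in the series design.

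Cells release superoxide from mitochondria and from oxidase enzymes. Superoxide dismutases turn it into hydrogen peroxide, which catalase breaks down in peroxisomes and which glutathione peroxidases and peroxiredoxins reduce elsewhere with electrons from glutathione and thioredoxin. At birth the lung passes from the low oxygen of the womb to air, and its antioxidant enzyme activities are known to climb late in gestation. SOX9 is a transcription factor made in the branching tips of the fetal lung epithelium.

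Sequences just before the transcription start are shown for Cat, whose level moved most with the Sox9 genotype, and for Sod1 and Prdx1, which hold the antioxidant response element core. This core, TGACNNNGC, is bound by NRF2, a regulator of antioxidant genes, and CCAAT is the core of the box bound by NF-Y. Capitals mark matches to either core on either strand. Each sequence is the 250 bases before a RefSeq gene start, read along the gene's own strand (GRCm38.p6). The windows are chr2:103485154-103485403 (minus strand) for Cat, chr16:90220512-90220761 (plus strand) for Sod1 and chr4:116685349-116685598 (plus strand) for Prdx1.
Cat: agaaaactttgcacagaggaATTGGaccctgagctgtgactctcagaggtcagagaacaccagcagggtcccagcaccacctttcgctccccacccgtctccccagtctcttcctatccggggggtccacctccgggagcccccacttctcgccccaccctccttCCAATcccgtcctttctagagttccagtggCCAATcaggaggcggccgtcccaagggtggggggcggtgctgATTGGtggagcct
Sod1: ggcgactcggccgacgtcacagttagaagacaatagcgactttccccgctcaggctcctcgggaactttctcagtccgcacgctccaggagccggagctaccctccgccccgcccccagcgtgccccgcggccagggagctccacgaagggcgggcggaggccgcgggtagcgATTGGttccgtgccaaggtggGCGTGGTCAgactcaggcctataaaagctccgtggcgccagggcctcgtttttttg
Prdx1: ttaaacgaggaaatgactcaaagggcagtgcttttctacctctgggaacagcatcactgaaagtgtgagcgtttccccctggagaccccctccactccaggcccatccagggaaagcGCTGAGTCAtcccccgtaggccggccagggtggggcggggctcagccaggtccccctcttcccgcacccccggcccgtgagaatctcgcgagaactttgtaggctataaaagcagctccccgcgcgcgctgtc
Of the 10 genes, 8 had an entry among the RefSeq sequences used, with 13 start windows in all. TGACNNNGC occurred in 3 of these 13 windows, 1 each of Sod1, Prdx1 and Txnrd1, against 10.2% of all 32851 windows of that length. CCAAT occurred in 8 of the 13 windows, from 6 genes, with 4 matches in the Cat window, against 33.8% of all windows. Some of the 13 overlap or belong to the same gene. ACAATG, a core shared by SOX factors, was searched in the same way and matched no window of these genes, against 10.7% of all windows. These counts describe letters in short windows and say nothing of which factors bind there.

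The deposited values are FPKM, fragments scaled by transcript length and library size, so levels can be compared between genes. Fragments inferred from the deposited confidence bounds summed to between 9783768 and 21500523 per library. The deposited FPKM totals ran from 659798 to 1631259, and 1 short microRNA record, Mir762, held 50.05% of the total of wild-type replicate 1 and 33.95% of that of E17 TRAP. Sox9 itself was at 35.9 and 36.4 FPKM in the wild type and at 12.8 and 11.03 in the mutant (log2 difference -1.53, SE 0.08, limma, adjusted p = 0.000153). Epithelial markers (8 genes, Epcam and Cdh1 among them) summed to 1579 to 1954 FPKM in the 6 TRAP libraries and to 419 and 690 in whole lung. Mesenchymal markers (8 genes) summed to 70.9 to 144 FPKM in TRAP and to 1058 and 1333 in whole lung, and no marker of either list was at 0.

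Sod1, the copper and zinc dismutase of the cytosol, had the highest level of the 10 in every library, and Sod3, the secreted dismutase, had the lowest. The summed level of the 10 genes lay between 1615 and 2475 FPKM, of which Sod1 made up 30.8% to 46.4%. The second place went to Prdx1 in both E14 libraries and in E17 TRAP, and to Gpx4 in E17 whole lung and in the 4 E16 libraries. In the E16 wild type the order of mean levels was Sod1, Gpx4, Gpx1, Prdx1, Prdx6, Txnrd1, Cat, Sod2, Gpx3 and Sod3, and no pair of neighbours overlapped between its 2 replicates. In the mutant Cat stood level with Prdx6, and Sod2 with Gpx3: within each of these pairs the replicates overlapped.

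**Figure D1:**
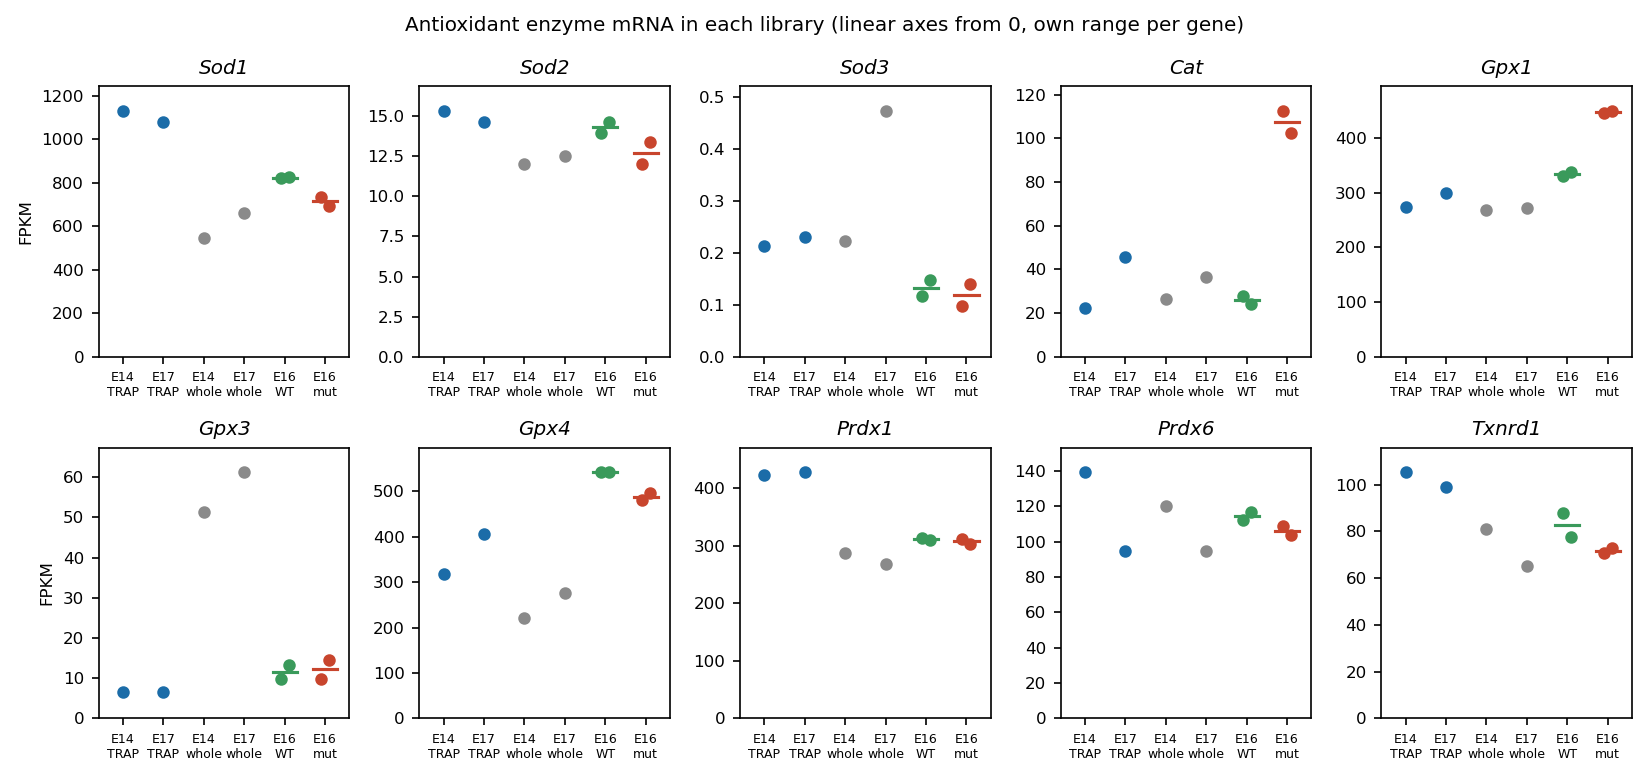
FPKM of each of the 10 genes in each of the 8 libraries (1 panel per gene, linear axes from 0, each with its own range); points are libraries and short lines are means of 2 E16 replicates (WT, wild type; mut, Sox9 mutant). Cat stands at 102 and 113 FPKM in the mutant libraries and at no more than 45.6 in any other, and Gpx3 stands at 51.3 and 61.3 FPKM in whole lung and at no more than 14.5 in TRAP.

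The comparison of E16 mutant with wild-type TRAP asks how mRNA on the recovered ribosomes differs with the Sox9 genotype. Cat, which encodes catalase, rose 4.12-fold, and Gpx1, the cytosolic and mitochondrial glutathione peroxidase, rose 1.34-fold. Sod1 fell 1.15-fold on the deposited scale, a call that several of the alternatives kept and several lost. The other 6 genes tested did not pass. With 2 higher and 1 lower of 9 tested, the counts stand beside 17.4% higher and 14.3% lower of all 11872 records tested, and no excess is read from them. The median log2 difference of the 9 was -0.11, against 0.01 over all records. The tenth gene, Sod3, lay under the filter of 1 FPKM in every comparison and was not tested.

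Cat (chromosome 2, 103453904 to 103485153, mm10, as are all positions given) was at 28.0 and 24.2 FPKM in the wild-type libraries and at 113 and 102 FPKM in the mutant libraries. Both mutant libraries were far above both wild-type ones. The means were 26.1 ± 2.69 and 107 ± 7.39 FPKM (SD, n = 2 each), a log2(FPKM + 1) difference of 2.00 (SE 0.09, 95% interval 1.79 to 2.22, limma, adjusted p = 9.15e-05). The call held under each alternative tried, without each of the 4 libraries included. The smallest number of inferred fragments behind a Cat value was 659 and the largest 7080, so counting error is small beside this difference.

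Markers of several cell types and tissues also differed between mutant and wild type, not all in the direction of Cat. The 8 liver markers summed to 5.83 and 5.88 FPKM in the wild type and to 99.9 and 126 FPKM in the mutant, where Alb stood at 37.9 and 54.2 FPKM. Of the 5 liver markers tested, 4 rose (Alb, Afp, Apoa1 and Trf) and Apoa2 fell, while Ttr and Fgb were at 0 in mutant replicate 1 and at 0.125 and 0.0623 FPKM in mutant replicate 2. The 6 mucous and gastric markers summed to 0.395 and 0.381 FPKM in the wild type and to 51.4 and 85.0 FPKM in the mutant, and 5 of 5 tested rose. The 7 alveolar type 2 markers summed to 3991 and 4655 FPKM in the wild type and to 1505 and 1252 FPKM in the mutant, with 3 of 7 called higher and 2 lower. Erythroid markers summed to 396 and 421 FPKM in the wild type and to 399 and 446 FPKM in the mutant, and overlapped. Of the 5 erythroid markers tested, 2 were called higher, 1 lower and 2 did not pass. The 7 cardiac muscle markers summed to 12.98 and 16.4 FPKM in the wild type and to 46.03 and 39.6 FPKM in the mutant. Of the 3 tested Myh7 rose (1.33 and 1.24 against 34.97 and 27.1 FPKM) and 2 did not pass, and Nppa was at 0 in both mutant libraries. The 8 epithelial markers summed to 1595 and 1579 FPKM in the wild type and to 1954 and 1851 FPKM in the mutant, with 6 called higher, 1 lower and a median log2 difference of 0.41. The part of any of these markers in the differences of Cat and of Gpx1, described next, was not tested.

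Among the other dismutases and glutathione peroxidases the differences were small. Gpx1 (chromosome 9, 108339080 to 108340344) was at 331 and 339 FPKM in the wild type and at 446 and 450.2 FPKM in the mutant. The groups did not overlap (335 ± 5.31 against 448 ± 3.07 FPKM, SD, n = 2 each), and the log2 difference was 0.42 (SE 0.05, limma, adjusted p = 0.00165). Scaled to equal FPKM totals, the libraries gave a Gpx1 difference of 0.88 that did not pass. With records under 200 bases left out before rescaling, the difference was 0.49 and passed (limma, adjusted p = 0.000147). The call also held under the other pseudocounts and filters and with libraries centred on their medians.

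Sod1 (chromosome 16, 90220742 to 90226324) was at 822 and 826 FPKM in the wild type and at 736 and 691 FPKM in the mutant. The groups did not overlap, and the difference was -0.21 (SE 0.05, limma, adjusted p = 0.0344). It turned to 0.25 (adjusted p = 0.866) when libraries were rescaled to a common total, a step that moved the median of all records to 0.41. The adjusted p was 0.111 without wild-type replicate 1, 0.133 without wild-type replicate 2, 0.125 without mutant replicate 2 and 0.148 with no filter on low values.

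Sod2, the manganese dismutase of mitochondria (chromosome 17, 13007839 to 13018119), was at 13.96 and 14.6 FPKM in the wild type and at 12.0 and 13.4 FPKM in the mutant. The mutant values were both lower, by a log2 difference of -0.16 that did not pass (95% interval -0.34 to 0.02). Sod3 (chromosome 5, 52363804 to 52369738) was at 0.116 and 0.148 FPKM in the wild type and at 0.0980 and 0.139 in the mutant, values that rest on 5 to 7 inferred fragments and overlap.

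Gpx4, which reduces lipid peroxides in membranes (chromosome 10, 80047166 to 80056439), was at 542 FPKM in both wild-type libraries and at 481 and 495 FPKM in the mutant. The groups did not overlap, but the log2 difference of -0.15 did not pass (limma, adjusted p = 0.0575), except with each library centred on its median (-0.20, adjusted p = 0.0178). Gpx3, the secreted plasma form (chromosome 11, 54902854 to 54910382), was at 9.73 and 13.3 FPKM in the wild type and at 9.80 and 14.5 FPKM in the mutant. These groups overlapped, and its interval of -0.44 to 0.57 allows a change in either direction.

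Neither peroxiredoxin passed, nor did the thioredoxin reductase gene Txnrd1. Prdx1, a cytosolic peroxiredoxin (chromosome 4, 116685599 to 116700000), was at 313 and 311 FPKM in the wild type and at 312 and 304 FPKM in the mutant, and the groups overlapped (log2 difference -0.02, 95% interval -0.13 to 0.09). Prdx6, which also acts as a phospholipase on surfactant lipids (chromosome 1, 161240112 to 161251166), was at 112 and 117 FPKM in the wild type and at 109 and 104 FPKM in the mutant (-0.11, interval -0.24 to 0.02). Txnrd1, the cytosolic thioredoxin reductase (chromosome 10, 82833951 to 82897724), was at 87.8 and 77.5 FPKM in the wild type and at 70.6 and 72.8 FPKM in the mutant (-0.20, limma, adjusted p = 0.0805). Groups did not overlap for Prdx6 and Txnrd1, and neither passed, except Txnrd1 with each library centred on its median (-0.25, limma, adjusted p = 0.0374). For Gpx4, Prdx1 and Txnrd1 the deposited bounds did not move between libraries as counting error alone would make them, so no fragment number is given for these genes. Their records overlap those of Bc1, AV051173 and Eid3, which reached at most 0, 0.815 and 0.200 FPKM.

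Around the 10 enzymes, 101 other genes of oxidant metabolism were read in 7 lists, and 85 could be tested in the mutant comparison: 27 rose, 15 fell and 43 did not pass. These are 31.8% and 17.6% of the 85, beside 17.4% and 14.3% of all records. Rescaling to a common total left 2 higher and 0 lower over the 7 lists. Leaving out records under 200 bases before rescaling gave 30 higher and 13 lower, and centring on library medians gave 25 and 20. The list of NRF2, its partners and targets, the longest of the 7, held the most calls. Of its genes 12 of 25 were higher, 2 lower and 11 did not pass (median log2 0.31, against 0.01 over all records). Nfe2l2, which encodes NRF2, was at 28.6 and 28.7 FPKM in the wild type and at 54.4 and 49.3 FPKM in the mutant (log2 difference 0.83, SE 0.06, limma, adjusted p = 0.000481). The glutathione transferase genes Gsta4 (1.04) and Mgst1 (1.02) rose too, as did the aldo-keto reductase gene Akr1c13 (1.22). With libraries rescaled to a common total 1 of the 25 was called higher and 0 lower, with a median of 0.73 beside the shift of 0.41 over all records. Leaving out records under 200 bases first gave 14 higher and 2 lower in this list, and centring on library medians gave 12 and 3.

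Of 10 other peroxidases and partners tested, 1 rose, 3 fell and 6 did not pass. Gpx2, the glutathione peroxidase of gut-type epithelium, was at 70.02 and 55.4 FPKM in the wild type and at 7.31 and 15.0 FPKM in the mutant, with no overlap (log2 difference -2.46, SE 0.30, limma, adjusted p = 0.00252). Prdx4 (-0.39) of the endoplasmic reticulum and Park7 (-0.21) fell, though both turned positive with rescaling to a common total (0.06 and 0.25), and Gpx7 rose (0.40). In the thioredoxin and glutaredoxin list 3 of 11 rose, 2 fell and 6 did not pass. There Glrx (glutaredoxin, 0.71), Txnip, an inhibitor of thioredoxin (0.68), and Nxn (nucleoredoxin, 0.74) rose and Txnrd2, the mitochondrial reductase, fell (-0.41). Of 10 genes of glutathione and NADPH supply, 3 rose, 1 fell and 6 did not pass. Gclc, of the enzyme that starts glutathione synthesis, rose by 0.70, and G6pdx (0.26) and Pgd (0.21), which make NADPH, rose less. Slc3a2, a subunit of the cystine transporter, fell by 0.35, and turned to 0.08 with rescaling.

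Gpx1, Gpx3, Gpx4 and Txnrd1 encode selenoproteins, enzymes that carry selenium as selenocysteine. Of 17 tested genes of selenoprotein synthesis and other selenoproteins, 2 rose, 5 fell and 10 did not pass. Selenop, the selenium carrier of plasma, was at 35.02 and 37.04 FPKM in the wild type and at 107 and 126 FPKM in the mutant (log2 difference 1.66, SE 0.09, limma, adjusted p = 0.000162). Selenom (-1.30), Dio3, which inactivates thyroid hormone (-1.17), and Selenoh (-0.35, or 0.11 with rescaling) fell. Of 6 methionine repair and sestrin genes, Sesn2 (0.67) and Sesn3 (0.24) rose, Msra (-0.42) and Msrb2 (-0.45) fell and 2 did not pass. Among 15 oxidant-producing enzymes 6 could be tested, and 4 of them rose. Among them were Ncf1, a subunit of the phagocyte oxidase (1.81), Cyba, its membrane partner (0.33), and Maob, a monoamine oxidase (0.44). The 7 leukocyte markers, beside which Ncf1 is read, summed to 2.23 and 2.25 FPKM in the wild type and to 1.93 and 2.23 FPKM in the mutant, and each was under 1 FPKM in all 4 libraries.

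**Figure D2:**
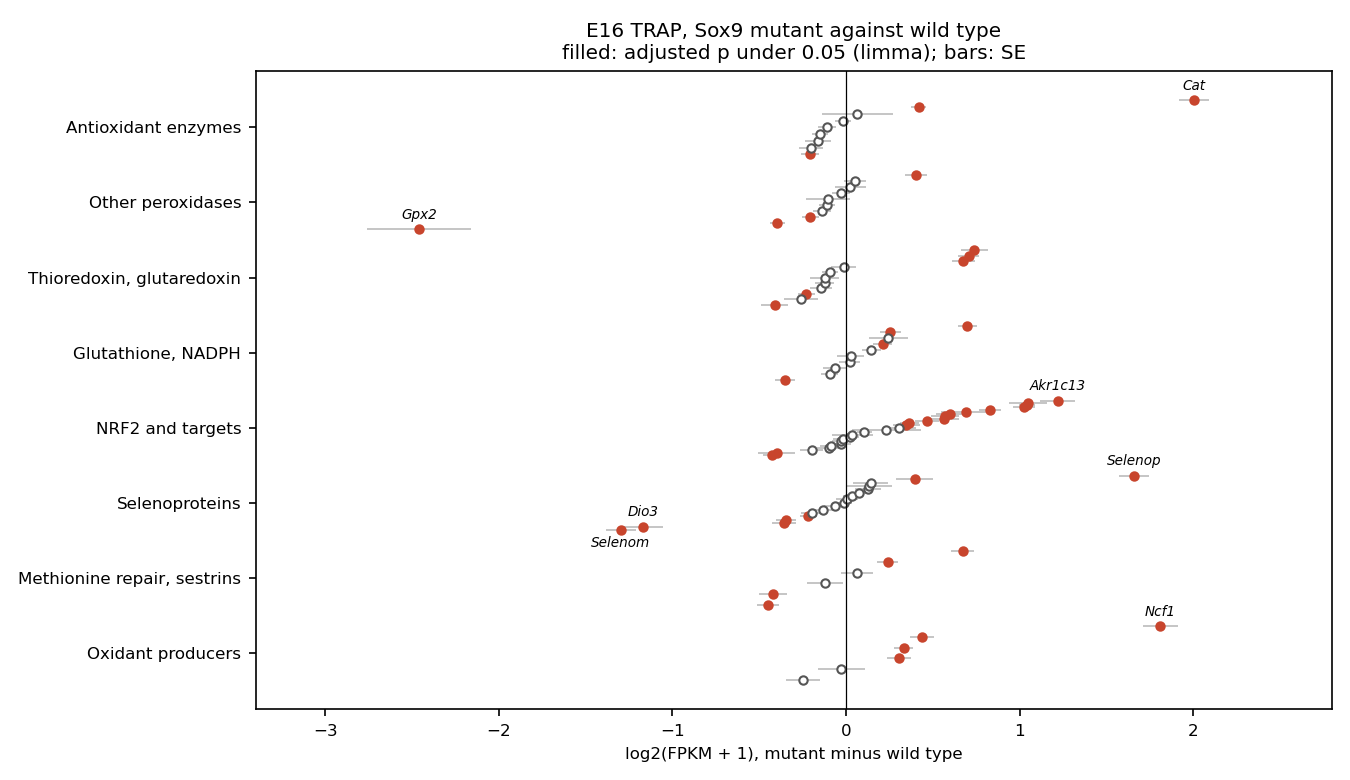
Difference in log2(FPKM + 1) between E16 Sox9-mutant and wild-type TRAP (horizontal axis) for the antioxidant enzymes and the 7 lists of related genes (rows), 1 point per gene with its standard error; filled points passed limma's test and open points did not. Cat (2.00) stands alone among the enzymes and Gpx2 (-2.46) among the other peroxidases. In the NRF2 list 12 of 25 genes are filled to the right of 0. Rescaling to a common total turned 8 of the 42 filled points of the lists, with Sod1, to the other side. With records under 200 bases left out before rescaling, or with libraries centred on their medians, 0 of the 42 turned.

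The comparison of TRAP with whole lung asks which mRNAs stand higher on the recovered ribosomes than in RNA of the whole organ. Which cells hold an mRNA, how far it is loaded on ribosomes and how well it is recovered cannot be told apart there. Sod1, Gpx4, Prdx1 and Txnrd1 were higher in TRAP and Gpx3 was lower, while Sod2, Cat, Gpx1 and Prdx6 did not pass. These counts, 4 higher and 1 lower of 9, stand beside 23.6% higher and 17.1% lower of all 12320 records tested. The median of the 9 was 0.27, against 0.05 over all records. Read stage by stage with a 2-fold line and no test, Sod1 was higher and Gpx3 lower at E14 (6.01% and 9.43% of all records), and at E17 0 enzymes were higher and Gpx3 was lower (4.83% and 8.91%). Each stage gave 1 library per fraction, so the test measures how far the stages disagree, with 1 residual degree of freedom.

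Sod1 was at 1131 FPKM in TRAP and 547 in whole lung at E14, and at 1079 and 661 FPKM at E17. TRAP exceeded whole lung at both stages (log2 difference 0.88, SE 0.12, limma, adjusted p = 0.00496). Sod2 was at 15.3 and 12.02 FPKM at E14 and at 14.6 and 12.5 FPKM at E17, again higher in TRAP. The Sod2 difference of 0.27 did not pass (95% interval -0.02 to 0.57) unless all 8 libraries were fitted together (limma, adjusted p = 0.0242). That fit takes its spread from the E16 pairs and called 8160 of 12248 records, so it does not measure spread at E14 or E17. Sod3 was at 0.213 and 0.223 FPKM at E14 and at 0.231 and 0.474 FPKM at E17, where the whole-lung value rests on 20 inferred fragments and the TRAP value on 9.

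Cat was at 22.5 FPKM in TRAP and 26.6 in whole lung at E14, and at 45.6 and 36.6 FPKM at E17. TRAP was thus the lower fraction at E14 (log2 difference -0.23) and the higher at E17 (0.31), and the pooled difference of 0.04 did not pass (interval -0.34 to 0.42).

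Gpx3 was at 6.65 FPKM in TRAP and 51.3 in whole lung at E14, and at 6.66 and 61.3 FPKM at E17. TRAP was 7.72-fold lower at E14 and 9.20-fold lower at E17 (log2 difference -2.90, SE 0.12, limma, adjusted p = 0.000352). Mesenchymal markers were lower in TRAP too, and summed to 86.4 and 105 FPKM in E14 and E17 TRAP and to 1058 and 1333 FPKM in whole lung. So were endothelial markers (7 of 7 called lower), smooth muscle and pericyte markers (6 of 6), leukocyte markers (6 of 6 tested) and erythroid markers (7 of 8 tested). The part of any of these cells in the Gpx3 difference was not tested. Gpx4 was at 318 and 221 FPKM at E14 and at 406 and 276 FPKM at E17, higher in TRAP both times (0.54, SE 0.09, limma, adjusted p = 0.00852). Gpx1 was at 274 and 268 FPKM at E14 and at 299.9 and 272 FPKM at E17, a difference of 0.09 with an interval of -0.15 to 0.32.

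Prdx1 was at 423 FPKM in TRAP and 287 in whole lung at E14, and at 428 and 269 FPKM at E17. Its excess in TRAP passed (0.61, SE 0.10, limma, adjusted p = 0.00654). Txnrd1 was at 105 and 81.03 FPKM at E14 and at 99.1 and 65.05 FPKM at E17, and was also higher in TRAP (0.49, SE 0.10, limma, adjusted p = 0.0155). Prdx6 was at 139 and 120 FPKM at E14 and at 94.9 and 94.7 FPKM at E17. The pooled Prdx6 difference of 0.11 did not pass (interval -0.14 to 0.36), nor did the test of a difference between the stages (-0.21, limma, adjusted p = 0.309).

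With rescaling to a common total, which moved the median of all records to -0.29, only the call of Gpx3 among these 5 was kept. With no filter none was kept (Gpx3, limma, adjusted p = 0.153). With limma-voom on inferred fragments Gpx4, Prdx1 and Txnrd1 lost theirs (adjusted p = 0.0732, 0.0686 and 0.0612). The inferred fragments of Gpx4, Prdx1 and Txnrd1 do not follow counting error, so limma-voom is no check of their calls. Erythroid markers, of which 9 of 10 were found, summed to 3979 and 4111 FPKM in TRAP and to 16725 and 13554 FPKM in whole lung, endothelial markers (7 genes) to 24.4 and 41.0 against 231 and 408 FPKM, and leukocyte markers (7 genes) to 5.06 and 8.67 against 52.7 and 72.6 FPKM. Their part in the enzyme differences was not tested, and in whole lung fewer cells of a type and less RNA per cell cannot be told apart.

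**Figure D3:**
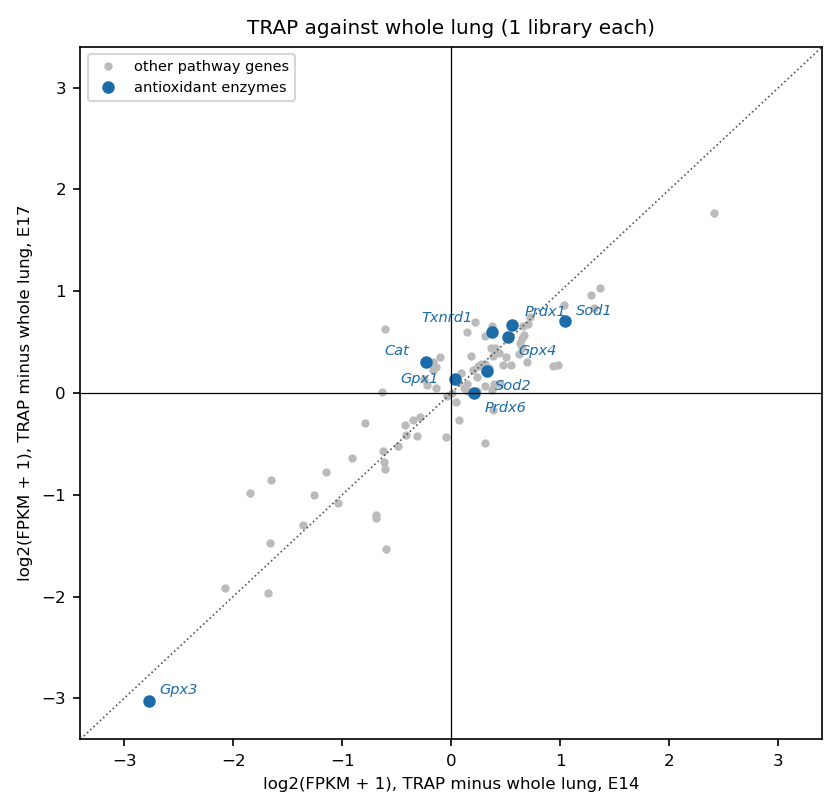
Difference in log2(FPKM + 1) between TRAP and whole lung at E14 (horizontal axis) and at E17 (vertical axis) for the 9 tested antioxidant enzymes (blue) and other genes of oxidant metabolism (grey), 1 library per stage and fraction; the dotted line marks equal differences. Gpx3 lies at -2.77 and -3.02, Sod1 at 1.05 and 0.71, and Cat changes side between the stages (-0.23 and 0.31).

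Of 85 related genes tested in this comparison, 24 were higher in TRAP, 18 lower and 43 did not pass. These shares, 28.2% and 21.2%, lie near the 23.6% and 17.1% of all records. Rescaling to a common total left 2 higher and 19 lower over the 7 lists. Leaving out records under 200 bases before rescaling gave 21 higher and 21 lower, and centring on library medians gave 28 and 18. Among the 10 other peroxidases 4 were higher, Gpx2 (2.09), Park7 (0.61) and Prdx4 (0.42) among them, and Gpx7 was lower (-0.60). In the thioredoxin and glutaredoxin list 4 of 11 were higher, with Txn1, thioredoxin itself (0.73), and Glrx5 (0.70), and 2 were lower, Txnip (-0.65) and Nxn (-1.07). Of 11 genes of glutathione and NADPH supply, 3 were higher and 0 lower: Gsr, glutathione reductase (1.12), Ggt1 (1.07) and Gclc (0.52). The NRF2 list split, with 7 of 24 higher, Gsta4 among them (1.20), and 8 lower. The ferritin chains Fth1 (-1.99) and Ftl1 (-1.82) and the heme oxygenase Hmox1 (-1.57), which handle iron and heme, were among the lower ones.

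Of 16 selenoprotein genes, 5 were higher, with Sephs2, which makes the selenium donor (0.95), and Selenoh (0.60), and 3 were lower, with Selenop (-0.78) and Selenok (-0.68). Sesn1 (-0.96) and Msrb3 (-1.26) were lower and 4 other methionine repair and sestrin genes did not pass. Of 7 oxidant-producing enzymes Cyba was higher (0.56), Ncf1 (-1.33) and Nox4 (-0.94) were lower and 4 did not pass.

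The comparison of E17 with E14 asks what changes in mRNA on the recovered ribosomes and in the whole organ as birth nears. Cat rose and Prdx6 fell from E14 to E17, and the other 7 tested enzymes did not pass. Against this 1 higher and 1 lower of 9 stand 9.51% higher and 6.36% lower of all 12320 records tested, so no excess is read from the counts. The median of the 9 was 0.07, against 0.01 over all records. The test takes its spread from the disagreement between TRAP and whole lung. No enzyme changed at least 2-fold on the log2(FPKM + 1) scale in either fraction, where 4.55% of records in TRAP and 4.67% in whole lung were at least 2-fold higher and 1.82% and 1.23% at least 2-fold lower.

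Cat went from 22.5 to 45.6 FPKM in TRAP and from 26.6 to 36.6 FPKM in whole lung. The E17 value was higher in both fractions, by 0.99 on the log2 scale in TRAP and by 0.45 in whole lung (pooled 0.72, SE 0.15, limma, adjusted p = 0.0367). The difference between the fractions, 0.54, was tested in a fit of all 8 libraries whose spread comes from the E16 pairs, and did not pass (limma, adjusted p = 0.195). That test passed for none of the enzymes, and 0.351% of 12248 records passed it with a larger change in TRAP and 0.563% with a smaller one.

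Prdx6 went from 139 to 94.9 FPKM in TRAP and from 120 to 94.7 FPKM in whole lung, lower at E17 in both (log2 -0.55 and -0.34). The pooled difference was -0.44 (SE 0.10, limma, adjusted p = 0.0412). Both calls sat near the threshold. With a pseudocount of 5 the adjusted p was 0.0524 for Cat and 0.0543 for Prdx6, and neither passed with no filter on low values or with rescaling to a common total, which moved the median of all records to -0.23; Prdx6 also missed with a pseudocount of 0.1 (0.0524) and with limma-voom (0.0696).

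Sod1 differed between E14 and E17 by -0.07 in TRAP and 0.27 in whole lung, and Sod2 by -0.06 and 0.05. Neither dismutase passed, and the intervals of the pooled differences were -0.21 to 0.41 for Sod1 and -0.30 to 0.29 for Sod2. Sod3 was 2.12-fold higher at E17 in whole lung, with 20 inferred fragments against 13, and 1.09-fold higher in TRAP with 9 against 5, too few for a comparison.

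Among the glutathione peroxidases Gpx4 was higher at E17 by 0.35 in TRAP and by 0.32 in whole lung. The pooled 0.33 did not pass (limma, adjusted p = 0.0642) unless all 8 libraries were fitted together (limma, adjusted p = 0.00349). That fit takes its spread from the E16 pairs and called 5971 of 12248 records by stage, so it does not measure spread at E14 or E17. Gpx1 differed by 0.13 and 0.02, and Gpx3 by 0.00 in TRAP and 0.25 in whole lung. Prdx1 differed by 0.02 and -0.09 and Txnrd1 by -0.09 and -0.31, and the intervals of both pooled differences held 0. Alveolar type 2 markers (7 genes) rose over the same time from 515 to 12705 FPKM in TRAP and from 101 to 3425 FPKM in whole lung in sum, with 6 of 7 called. Epithelial markers went from 1853 to 1916 FPKM in TRAP and from 419 to 690 FPKM in whole lung. Their part in the enzyme changes was not tested.

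**Figure D4:**
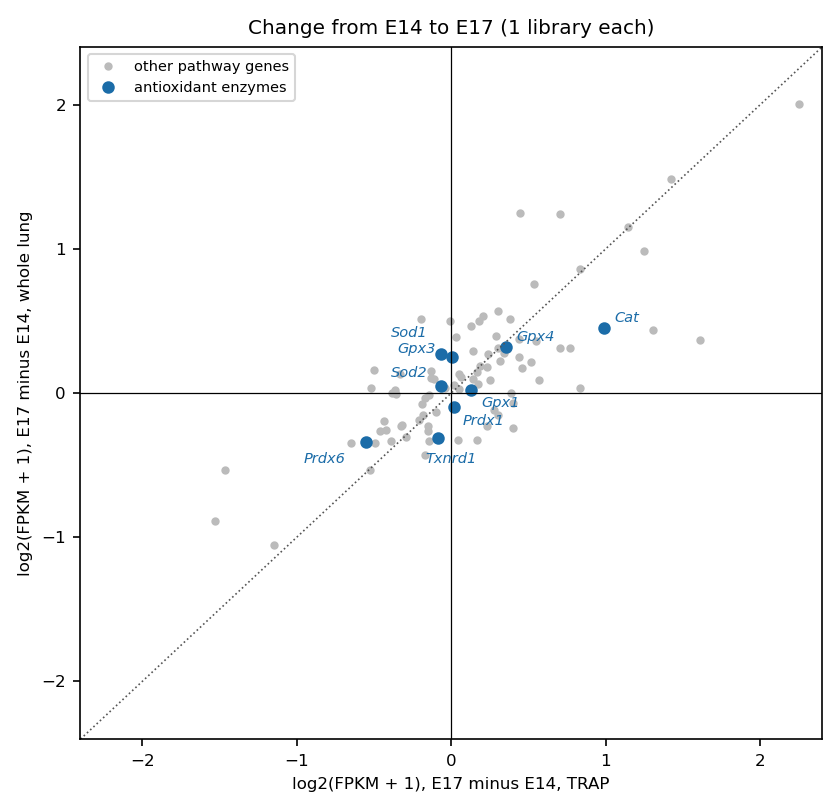
Change in log2(FPKM + 1) from E14 to E17 in TRAP (horizontal axis) and in whole lung (vertical axis) for the 9 tested antioxidant enzymes (blue) and other genes of oxidant metabolism (grey), 1 library per stage and fraction; the dotted line marks equal changes. Cat lies at 0.99 and 0.45 and Prdx6 at -0.55 and -0.34, and Gpx4 (0.35 and 0.32) lies farthest from 0 among the enzymes that did not pass.

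Of 85 related genes, 10 rose from E14 to E17, 5 fell and 70 did not pass. These shares, 11.8% and 5.88%, lie near the 9.51% and 6.36% of all records, and rescaling to a common total left 3 higher and 3 lower over the 7 lists, while leaving out records under 200 bases before rescaling gave 12 and 12. Prdx5, a peroxiredoxin of mitochondria and peroxisomes, rose (0.64), while Gpx2 fell (-1.21), from 72.8 to 24.6 FPKM in TRAP and from 12.9 to 6.53 FPKM in whole lung. Txnip rose (1.45) and Nxn fell (limma, adjusted p = 0.0418) among 11 thioredoxin and glutaredoxin genes. Of 11 genes of glutathione and NADPH supply, Nnt, the mitochondrial transhydrogenase, fell (-0.53) and 10 did not pass. In the NRF2 list 4 of 24 rose, with Mgst1 (1.15), Nfe2l2 (0.85) and Gstm1 (0.97), and Tkt, transketolase, fell (-0.42). Nfe2l2 went from 26.7 to 48.5 FPKM in TRAP and from 20.2 to 37.5 FPKM in whole lung. Selenop (1.11) and Selenof (0.51) rose among 16 selenoprotein genes, Sesn3 fell (-1.10) among 6 methionine repair and sestrin genes, and Maob (2.13) and Cyba (0.45) rose among 7 oxidant-producing enzymes.

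Set beside E14 and E17 TRAP, E16 wild-type TRAP was not always intermediate. Gpx4 (542 FPKM in both replicates, against 318 at E14 and 406 at E17) and Gpx1 (331 and 339, against 274 and 299.9) lay above both, as did Gpx3 (9.73 and 13.3, against 6.65 and 6.66). Sod1 (822 and 826 FPKM, against 1131 and 1079), Prdx1 (313 and 311, against 423 and 428) and Txnrd1 (87.8 and 77.5, against 105 and 99.1) lay below both. Sod2 (13.96 and 14.62 FPKM, against 15.3 and 14.63) and Sod3 (0.116 and 0.148, against 0.213 and 0.231) also lay below both, Sod2 with 1 library nearly level with E17 and Sod3 on few fragments. Cat, at 28.0 and 24.2 FPKM, was between 22.5 and 45.6, and Prdx6, at 112 and 117 FPKM, was between 139 and 94.9. Erythroid markers summed to 396 and 421 FPKM in the E16 wild type, against 3979 and 4111 in E14 and E17 TRAP, and stage and library set cannot be told apart. In the E16 mutant Cat was above every other library, E17 TRAP included.

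Genes with the most similar pattern were looked for among the 8547 records that averaged 5 FPKM or more, by Pearson's r of log2(FPKM + 1) over the 8 libraries. These libraries include replicate pairs and differ in depth and tissue fraction, so r is a description. For Gpx3, whose log2 level spanned 3.02, the closest were Nid1 (nidogen, r = 0.992), Col3a1 (type III collagen, 0.992) and Fez2 (0.990). For Cat, which spanned 2.28, they were Vasp, an actin regulator (0.985), Myh7, the slow cardiac myosin (0.982), and Zfp467 (0.981). Gpx4 (span 1.29) ran closest to Tmem8 (0.996), Bri3 (0.996) and H2afv (0.995), and Sod1 (span 1.05) to Mta3 (0.985), Srebf1 (0.984) and Poc1a (0.980). The patterns of the 4 enzymes thus had no leading neighbour in common.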

How the data were processed

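RNA-seq of 8 embryonic lung libraries was deposited as 1 FPKM table per library. Per the submitters' processing notes, the authors used TopHat2 2.0.14, Bowtie2 2.2.3, mm10, Cufflinks 2.2.1 and Cuffnorm. The deposited FPKM values of 24487 records were used unscaled, and the filtering and library scaling of the authors are not given in the sources used here. Where a symbol had several records, the one with the highest mean was taken. Differences were tested with limma 3.58.1 (R 4.3.3) on log2(FPKM + 1), which understates changes of low genes. The fits kept records averaging 1 FPKM or more. EBayes had a trend, p-values were two-sided, and Benjamini-Hochberg adjustment ran over all records at 0.05. The mutant fit used 4 libraries (2 residual degrees of freedom). The other fit used the 4 E14 and E17 libraries with additive stage and fraction (1 residual degree of freedom). The spread that p-values measure is that between libraries and may be technical.

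Fragments were inferred from the deposited bounds, read as 2 standard errors. Of 12248 records, 9063 (74.0%) had bounds that shifted from library to library as counting error would, to within 0.1 log2, Sod1, Sod2, Sod3, Cat, Gpx1, Gpx3 and Prdx6 among them. Intervals cover the spread in the fit, and fragment numbers cover counting error only. Squared differences, over counting error, averaged 4.65 between wild-type and 6.12 between mutant replicates, with medians of 1.16 and 1.39. Between wild-type replicate 1 and mutant replicate 1, the only pair of genotypes compared so, the mean was 53.9 and the median 5.94. Records with at least 20 inferred fragments in both libraries entered, also those whose bounds do not follow counting error. Replicates thus differed by more than counting error alone, and by far less than this pair of genotypes did. Replicates were counted separately as labelled, and whether they are separate embryos is not known. The members and lists were chosen with earlier results of these data known. In each list the text names up to 4 genes with the smallest p per comparison, and for likeness the 3 records with the highest r for the 4 enzymes of widest range, with predicted gene models passed over. A gene that this rule would name is not reported here. Alternatives were other pseudocounts, filters, scalings, left-out replicates, the replicate block, limma-voom and a fit of all 8 libraries. The steps were tested on simulated data.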

Additional observations from a re-analysis of the deposited data

Results flagged for a closer look

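Sod1, Sod2 and Prdx1 moved in opposite directions from E14 to E17 in TRAP and in whole lung, with 1 library behind each value. The TRAP change minus the whole-lung change was -0.34 on the log2 scale for Sod1, -0.115 for Sod2 and 0.113 for Prdx1. Cat was lower in TRAP than in whole lung at E14 and higher at E17, and the E17 difference exceeded the E14 difference by 0.54. In the fit of all 8 libraries, chosen after seeing the data, limma's test of these differences passed for none of the 4: the adjusted p was 0.184 for Sod1, 0.700 for Sod2, 0.499 for Prdx1 and 0.195 for Cat.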

How the results depend on the processing

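Of the values for the 9 tested enzymes under the alternatives, 107 of 126 in the mutant comparison, 61 of 81 for TRAP against whole lung and 68 of 81 for E17 against E14 kept their direction and their side of the threshold. Cat in the mutant was called under every alternative run. The deposited scale gave 2063 records higher and 1692 lower in the mutant (54.9% of calls higher), 2910 and 2105 for TRAP (58.0%) and 1172 and 783 for stage (59.9%). The cause of each change below was not tested, except that leaving out a library or testing more records alters what enters the fit.

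With no filter on low values the mutant comparison gave 685 higher and 502 lower and 0 enzymes lower. The TRAP and stage comparisons then gave 0 records and 0 enzymes in either direction by limma, with 3039 higher and 2707 lower (TRAP) and 1816 and 1802 (stage) at an unadjusted p under 0.05. Rescaling to a common total left 167 higher and 58 lower in the mutant (74.2% higher), 1 enzyme higher and 0 lower. It left 547 higher in TRAP (16.04% of calls higher) with 0 enzymes higher, and 517 higher by stage (46.0%) with 0 enzymes in either direction. It turned the mutant differences of Sod1 to 0.253, Sod2 to 0.264, Gpx4 to 0.309, Prdx1 to 0.441, Prdx6 to 0.348 and Txnrd1 to 0.255. It turned the TRAP differences of Sod2 to -0.0912, Cat to -0.341, Gpx1 to -0.302 and Prdx6 to -0.28, and the stage differences of Sod1 to -0.175, Gpx1 to -0.203 and Gpx3 to -0.114. With records under 200 bases left out before rescaling, 68.3% of mutant and 45.1% of stage calls were higher, 0 enzymes were lower in the mutant and 1539 records were lower by stage. Prdx1 turned to 0.053 in the mutant, Cat to -0.0513 and Gpx1 to -0.00619 in TRAP, and Gpx1 to -0.00152 by stage. Centring on the library median gave 3 enzymes lower in the mutant (Sod1, Gpx4 and Txnrd1) and 42.8% of calls higher.

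A filter of 5 FPKM gave 1267 records lower in TRAP. A pseudocount of 5 gave 479 lower by stage with 0 enzymes in either direction, and a pseudocount of 0.1 gave 0 enzymes lower. Limma-voom gave 1783 higher in TRAP (43.2% of calls higher) with 1 enzyme higher, turned Cat to -0.0992, and gave 0 enzymes lower by stage. The TRAP calls it lost were those of Gpx4, Prdx1 and Txnrd1, whose inferred fragments do not follow counting error. The fit of all 8 libraries, whose spread comes from the E16 pairs, gave 4638 higher and 3522 lower in TRAP, 3125 and 2846 by stage, and 2 enzymes higher by stage. Leaving out 1 E16 library at a time gave 1166 to 1716 records higher, 722 to 1720 lower and 0 to 1 enzymes lower, with the lowest counts without wild-type replicate 2. Over the same 4 fits Gpx3 ran from -0.195 to 0.326, negative without wild-type replicate 1 or mutant replicate 2, and Prdx1 from -0.0373 to 0.000436, positive without mutant replicate 2. All that is known here of same-numbered E16 libraries is the shared number. Their deviations from the group means correlated at 0.01 over 11872 records, a single value that cannot show what a smaller set of records shares. With the replicate block 0 enzymes were lower, with Sod1 at -0.207 (limma, adjusted p = 0.0588), and 1929 records were higher and 1574 lower. Sod3 rested on 5 to 20 inferred fragments.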
